A study of Mus musculus with 16 samples.

Results

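The cells that carried the S100a5 reporter in mice given pulses of filtered air without odorant were compared with the cells that lacked it. Both came from the olfactory mucosa of S100a5-tauGFP mice, in which green fluorescent protein (GFP) is produced from the S100a5 gene, and were separated by fluorescence-activated sorting. The 8 arrays whose titles name vehicle were taken out of 16 in the series: 4 of GFP+ cells and 4 of GFP- cells, each from the pooled cells of 3 mice. The vehicle mice, 12 of the 24 in the study, were of both sexes and 7 to 12 weeks old. They spent 40 h alone in chambers with clean air flowing at 3.1 L/min and from 26 h on received a 10 s pulse of filtered air every 20 min. The other 8 arrays came from mice given pulses of 100% citrus accord, a perfumery blend, in the same line and chambers, and served only to ask whether the gate separated cells in the same way. Both gates of one replicate number were taken as the same pool of mice, although no label says so. All groups carry the reporter, so GFP- cells are cells of reporter mice below the sorting gate, not cells of animals without the reporter. GFP- cells are thus a mixture set by the gate, and in pooled RNA fewer cells of a type and less RNA per cell cannot be told apart. The mature neuron markers were bright in both gates: Omp, the olfactory marker protein of mature olfactory sensory neurons (OSNs), read a log2 expression of 19.36 to 19.39 in GFP+ and 18.83 to 19.28 in GFP- arrays.

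Each OSN expresses a single odorant receptor gene and sends its axon to a glomerulus of the olfactory bulb shared with the other neurons of that receptor. Odorants bind the receptor in the cilia, the G protein Gnal activates the adenylyl cyclase Adcy3, and cyclic AMP opens the cyclic nucleotide-gated channel, whose calcium in turn opens the chloride channel Ano2. Receptors also signal without odorant, at a rate that depends on the receptor, and this basal activity sets the level of activity-dependent genes such as S100a5 and of axon sorting molecules such as Kirrel2 and Kirrel3. OSNs are replaced throughout life from basal progenitors through an immature stage, beside sustentacular, gland and microvillous cells.

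The gates differed broadly. Of 19572 probe sets with a gene symbol, 1771 (9.05%) were higher and 1952 (9.97%) lower in GFP+ cells at a Benjamini-Hochberg adjusted p under 0.05 (limma, 4 arrays against 4), and 507 and 1406 of them differed by at least 2-fold. The median difference over all probe sets was 0.11 (log2, GFP+ minus GFP-, as all differences here). For 4079 probe sets (20.8%) the GFP+ and GFP- arrays did not overlap. The correlation across probe sets was r = 0.985 to 0.990 within a gate and 0.934 to 0.962 between the gates. The 95th percentile of negative-control probes, taken here as background, lay between 8.90 and 9.71 on the 8 arrays, and 4713 to 6007 probe sets exceeded it on an array. The balance of rises and falls depended on scaling: centring each array on its median gave 7080 higher and 1555 lower (median 0.39), setting the mature OSN markers equal 493 and 3558 (median −0.23), setting the receptor median equal 393 and 3491 (median −0.34) and quantile normalization 2371 and 1861. The setting on OSN markers is called the neuron scaling and that on the receptor median the receptor scaling from here on. Directions of small differences are relative to the scale as deposited. Without the arrays of replicate 2 the total fell from 3723 to 2466, and without those of replicate 4 to 2369. Without the GFP- array of replicate 4 alone, 1081 probe sets were higher. A fit on the vehicle arrays alone, without the spread of the citrus arrays, gave 1207 higher and 1837 lower.

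Genes that mark the reporter were the first members examined. On the GFP+ arrays of replicates 1 to 4, S100a5, a calcium-binding protein, read 16.74, 17.08, 16.76 and 16.84, and on the GFP- arrays 14.97, 14.92, 15.10 and 14.79. The gates did not overlap, and even the GFP- cells were far above background. Its difference of 1.91 ± 0.13 (SE) describes the sort, since the reporter is driven from this gene, and is not a test. The 250 bases upstream of its start, on the + strand at chr3:90608272-90608521 of GRCm38.p6 (RefSeq), are shown because they lie before the gene that drives GFP, and those of Pcp4l1, on the - strand at chr1:171196269-171196518, because this marker was higher with it.
S100a5: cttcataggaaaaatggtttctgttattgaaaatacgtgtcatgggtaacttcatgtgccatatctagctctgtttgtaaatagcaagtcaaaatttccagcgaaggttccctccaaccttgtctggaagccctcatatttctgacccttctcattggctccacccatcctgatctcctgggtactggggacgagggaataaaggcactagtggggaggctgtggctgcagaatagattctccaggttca
Pcp4l1: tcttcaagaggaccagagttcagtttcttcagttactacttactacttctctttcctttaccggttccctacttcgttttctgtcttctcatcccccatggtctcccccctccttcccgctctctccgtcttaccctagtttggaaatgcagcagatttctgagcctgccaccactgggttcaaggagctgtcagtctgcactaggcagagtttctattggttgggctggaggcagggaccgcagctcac
The cyclic AMP response element TGACGTCA, the homeodomain site TAATTA and the palindromic Ebf consensus site were searched for on both strands of such windows and are in capitals where printed sequences hold them. These letters are not in either window. Of all 27025 RefSeq promoter windows of this length, 1.77%, 5.65% and 0.914% hold them.

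Pcp4l1, a small protein related to the calmodulin regulator Pcp4, read 14.91, 14.36, 14.37 and 15.17 in GFP+ and 12.05, 12.18, 12.59 and 12.49 in GFP- cells. Every GFP+ array was above every GFP- array, a difference of 2.37 ± 0.25 (limma adjusted p = 1.4e-06). Fxyd2, a regulatory subunit of the sodium pump, read 7.82, 10.59, 10.50 and 10.85 in GFP+ and 6.31, 6.62, 7.40 and 6.81 in GFP- cells. Replicate 1 stood apart: its GFP+ value was below background while the other GFP+ arrays were above it, and no GFP- array was. The Fxyd2 difference was 3.15 ± 0.50 (adjusted p = 0.000179), and at least 1.58-fold when the GFP- arrays are set at the background they could have shown. Such bounds take, on each dim array, the higher of the lowest signal above background and the gene's own value. The gate thus separated its marker genes in the same direction in all 4 pools.

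**Figure D1:**
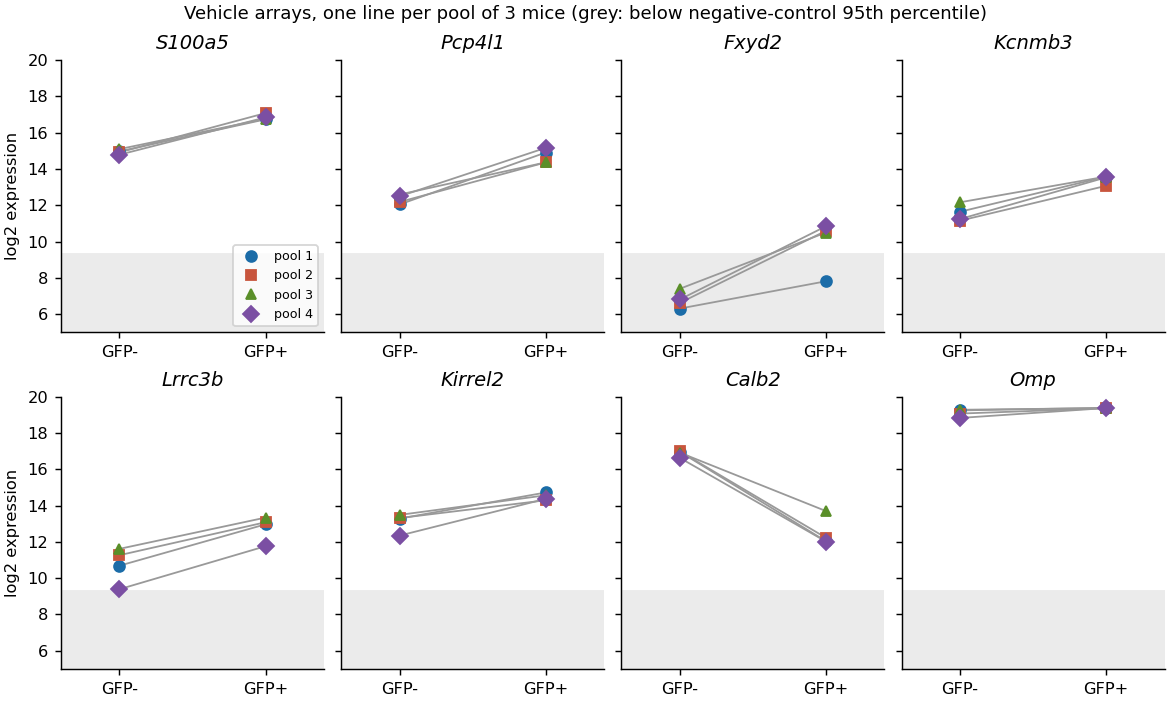
Log2 expression of 8 genes in GFP- and GFP+ cells of vehicle mice, 1 panel per gene, with lines joining arrays of one replicate number and grey marking values below the mean background level. S100a5, Pcp4l1, Fxyd2, Kcnmb3, Lrrc3b and Kirrel2 were higher in the GFP+ array of every pool, Calb2 was lower in every pool, and Omp lay near 19 throughout.

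The 20 non-receptor genes with the largest rises above background differed by 1.21 to 2.37. They were chosen for this size and for a higher GFP+ value in all 4 pools, so that neither is a finding. Kcnmb3, an accessory subunit of calcium-activated BK potassium channels, read 13.58, 13.07, 13.58 and 13.54 in GFP+ against 11.64, 11.15, 12.17 and 11.24 in GFP- cells. The gates did not overlap (1.89 ± 0.33, adjusted p = 0.000403), as was so for 20.8% of all probe sets. Kcnn2, a calcium-activated SK potassium channel, read 12.10, 11.86, 12.12 and 12.77 against 10.88, 10.34, 10.63 and 11.10, again without overlap (1.47 ± 0.21, adjusted p = 6.5e-05). BK and SK channels open with calcium, and any link of these rises to transduction was not tested. Across 90 potassium channel subunits 5 were higher and 3 lower, with a median difference of 0.07 that is close to the 0.11 of all probe sets, and 74 of them lay under background on all GFP- arrays. Over all probe sets 9.05% were higher and 9.97% lower. The channel counts were 7 and 6 with the pool as a block, 24 and 3 with each array centred on its median, and 3 and 9 under the neuron scaling (median −0.27). Besides Kcnmb3 and Kcnn2 the higher ones were Kcng1, a modifier subunit (1.74 ± 0.54, adjusted p = 0.0317, lost in 8 of 12 fits that left out an array or a pool and 0.111 without replicate 1), Kcnrg (1.27 ± 0.34) and Kcnn1, a further SK channel (0.75 ± 0.24, 0.0365). Kcnn1 and Kcnrg were named after their values were seen. The lower ones, Kcnn4 (−1.62), Kcnk1 (−1.10) and Kcnip3 (−0.87), were under background on all 8 arrays, and without replicate 2 the calls of Kcnk1 (0.0611) and Kcnip3 (0.105) ended. Scn4b, an auxiliary subunit of voltage-gated sodium channels, rose from 14.25 to 14.66 in GFP- to 15.06 to 15.64 in GFP+ cells (1.00 ± 0.18, adjusted p = 0.0006). It was the only 1 of 35 calcium and sodium channel subunits called higher, or 1 of 12 with each array centred on its median, and was not called under the receptor scaling (0 higher and 4 lower), while Cacng4 (−1.25 ± 0.26) and Cacna1b, of the N-type calcium channel (adjusted p = 0.0404), were called lower. Cacna1b read 13.52, 12.43, 13.25 and 13.25 in GFP+ and 14.60, 14.46, 13.73 and 13.67 in GFP- cells, without overlap. The Cacna1b call was lost in 9 of 12 fits that left out an array or a pool, among them those without the GFP+ array of replicate 2 (0.134) and without replicate 2 (0.278).

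Syngr1, a synaptic vesicle membrane protein, read 13.02, 12.62, 12.63 and 13.07 in GFP+ and 11.31, 11.56, 11.49 and 11.18 in GFP- cells. No arrays overlapped (1.45 ± 0.17, adjusted p = 6.72e-06). Syt4, a vesicle-fusion regulator of the synaptotagmin family, rose by 1.31 ± 0.18 (adjusted p = 2.9e-05). Of 15 synaptic vesicle genes, Sv2b (0.85 ± 0.21) and Syn2 (0.76 ± 0.18) were higher and 0 lower. The share higher was 13.3%, beside 9.05% of all probe sets. The Sv2b and Syn2 calls were lost without replicate 4 (adjusted p = 0.0553 and 0.0629). The list's median of 0.29 turned to −0.05 and −0.16 under the neuron and receptor scalings. Cidea, a protein of lipid droplets, read 12.08, 12.05, 11.41 and 11.97 against 10.70, 10.05, 10.57 and 9.11 (1.77 ± 0.29, adjusted p = 0.000262). Tmem159, a factor of lipid droplet formation, rose by 1.39 ± 0.21 (adjusted p = 8.82e-05).

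Adam28, a membrane metalloprotease, read 13.76, 13.72, 13.59 and 14.06 in GFP+ and 12.32, 12.24, 12.60 and 12.10 in GFP- cells. The gates did not overlap (1.47 ± 0.17, adjusted p = 4.07e-06). Inpp5f, a phosphoinositide phosphatase (1.28 ± 0.19), Il18, an interleukin (1.23 ± 0.20), Pnmal1 (1.36 ± 0.18), Gpr162, an orphan receptor (1.34 ± 0.22), and Ggact (1.23 ± 0.18, at least 1.49-fold) rose as well. Lrrc3b, a leucine-rich repeat protein, read 12.97, 13.08, 13.34 and 11.76 against 10.69, 11.27, 11.62 and 9.39. Replicate 4 was the lowest of its gate on both sides, so that its GFP+ array overlapped no GFP- array by a narrow margin (2.05 ± 0.54, adjusted p = 0.0115). The call ended without the GFP- array of replicate 4 (adjusted p = 0.0514). By pool the Lrrc3b differences were 2.28, 1.82, 1.72 and 2.37, and with the pool as a block the adjusted p was 7.03e-06. Rasl11a, a Ras-like GTPase (1.45 ± 0.43, adjusted p = 0.0241), and Rnf183, a ubiquitin ligase (1.22 ± 0.35, adjusted p = 0.0206), passed in 6 and 8 of 12 fits with an array or pool left out. Without the GFP- array of replicate 4 their adjusted p was 0.096 and 0.0849. The Rasl11a values of both replicate 4 arrays, 10.75 and 8.98, were the lowest of their gates. With the pool as a block the Rasl11a adjusted p was 3.55e-05, and all 20 of the largest rises passed.

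Of 21 olfactory transduction genes 3 were called higher and 3 lower, with a median of 0.19, beside 9.05% higher and 9.97% lower of all probe sets and a median of 0.11. These counts moved with the scaling, to 13 higher and 3 lower with each array centred on its median (median 0.47), 1 and 6 under the neuron scaling (−0.15) and 0 and 6 under the receptor scaling (−0.26). Pde1c, the calcium-dependent phosphodiesterase of OSN cilia, read 15.84, 15.48, 15.36 and 15.97 in GFP+ and 14.93, 14.62, 14.58 and 14.71 in GFP- cells, without overlap (0.95 ± 0.16, adjusted p = 0.000279). Ano2, the chloride channel that amplifies the calcium signal, read 17.61, 17.48, 17.28 and 17.53 against 16.91, 16.80, 16.84 and 16.79, also without overlap (0.64 ± 0.13, adjusted p = 0.00129). Cnga2, a subunit of the cyclic nucleotide-gated channel, read 17.18, 17.19, 17.19 and 17.03 against 16.91, 16.47, 16.81 and 16.36 (0.51 ± 0.15, adjusted p = 0.0206). The Cnga2 call was lost in 4 of 12 fits with arrays left out, among them those without the GFP- array of replicate 2 (0.0651) or of replicate 4 (0.0784). Gnal, the olfactory G protein, differed by −0.21 ± 0.15 (adjusted p = 0.393), Adcy3 by 0.26 (0.208), Cnga4 by 0.20 and Stoml3, a stomatin of the cilia, by 0.02. Gng13, the G protein gamma subunit, differed by 0.43 (0.0785, or 0.0453 with the pool as a block).

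The 3 transduction genes called lower were Gnas, Rgs2 and Grk3. Gnas, the G protein that Gnal replaces as OSNs mature, read 6.50, 7.18, 7.44 and 6.13 in GFP+ and 10.35, 11.23, 11.11 and 11.41 in GFP- cells. It was above background only in GFP- cells (−4.21 ± 0.32, adjusted p = 3.3e-08, at least 3.20-fold lower). Rgs2, a regulator of G protein signalling (−5.01 ± 0.46), was 3.13 to 3.57 in GFP+ and 7.47 to 9.42 in GFP- cells, and Grk3, a receptor kinase (−1.20 ± 0.23), stayed under background in both. Of 16 mature OSN markers 4 (25%) were higher and 0 lower (median 0.30), beside 9.05% and 9.97% of all probe sets. The 4 were Cnga2, Ano2, Pde1c and Rtp2, a chaperone of receptor transport (0.75 ± 0.17, adjusted p = 0.00437). Under the receptor scaling the list held 0 higher and 1 lower (median −0.15), and with each array centred on its median 13 higher. Among 17 genes of receptor choice and trafficking, Rtp2 and Hspa5, an endoplasmic reticulum chaperone, were higher. Lbr, the lamin B receptor that OSNs lose as they mature, was lower. These calls were 11.8% and 5.88% of the list, beside 9.05% and 9.97% of all probe sets. Lbr read 9.14, 9.66, 9.37 and 9.44 in GFP+ and 10.70, 10.58, 10.78 and 12.08 in GFP- cells (−1.63 ± 0.29). The Hspa5 difference of 0.41 (adjusted p = 0.0432) was lost with the pool as a block (0.055), in 11 of 12 fits with arrays left out, and reached −0.04 under the receptor scaling. Of 8 markers of the dorsal and ventral zones of the mucosa Nqo1 passed as higher with the block alone (0.55, adjusted p = 0.0468), and 1 passed without it, the factor Nfia (−0.87 ± 0.24, adjusted p = 0.0146, lost in 5 of 12 fits and 0.157 without replicate 2). The olfactory transcription factors Lhx2, Ldb1 and Ebf1 to Ebf4 differed by −0.17 to 0.03 and did not pass.

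Axon sorting molecules were called in both directions. Of 21 measured guidance and sorting genes, 5 (23.8%) were higher and 2 (9.52%) lower, beside 9.05% and 9.97% of all probe sets. The share called lower and the list median of 0.11 were thus close to those of all probe sets. Under the receptor scaling 0 were higher and 4 lower. Sema7a, a membrane-anchored semaphorin, read 13.26, 13.18, 13.27 and 13.11 in GFP+ and 12.06, 12.43, 12.39 and 11.88 in GFP- cells. It had the smallest adjusted p of the list (1.01 ± 0.14, adjusted p = 4.15e-05). Kirrel2, a homophilic adhesion molecule of axons with high activity, read 14.72, 14.29, 14.57 and 14.37 against 13.28, 13.31, 13.49 and 12.35. Its arrays did not overlap, yet the call was narrow (1.38 ± 0.45, adjusted p = 0.0394): it held in 2 of 12 fits with arrays left out, reached 0.177 without replicate 4, and was 0.000243 with the pool as a block. Kirrel3, the adhesion molecule of axons with low activity, read 12.10, 12.22, 12.53 and 12.43 against 12.78, 13.05, 12.93 and 12.97. It lay below the GFP- arrays in every pool without passing (−0.61 ± 0.21, adjusted p = 0.0549), and passed with the block (0.0185). Efna5, an ephrin ligand of axons with low activity, read 13.74, 13.36, 13.85 and 13.86 against 14.40, 14.84, 14.04 and 14.34 and fell by 0.70 ± 0.18 on the log2 scale (adjusted p = 0.0114, or 0.127 without replicate 2). Its receptor Epha5 rose (0.84 ± 0.22, adjusted p = 0.0134, or 0.127 without replicate 4), as did Slit1, a repellent ligand (0.60 ± 0.16, adjusted p = 0.0108, or 0.0553 without replicate 2 and 0.0691 without replicate 3). Pcdh10, an activity-dependent protocadherin, was under background on all 8 arrays (1.19 ± 0.38, adjusted p = 0.0374, lost in 8 of 12 fits and 0.191 without replicate 4). Pcdh19 was −0.63 ± 0.21 (adjusted p = 0.0429, lost with the block at 0.063 and in 9 of 12 fits, among them without replicate 2, at 0.234). Outside the list, Sema3e, a secreted semaphorin, rose by 1.25 ± 0.17 (adjusted p = 2.52e-05).

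Among 20 calcium-binding genes 3 (15%) were higher and 2 (10%) lower, beside 9.05% and 9.97% of all probe sets. The list's median was 0.19, or −0.15 and −0.26 under the neuron and receptor scalings. Calb2, calretinin, read 12.04, 12.23, 13.70 and 12.02 in GFP+ and 16.96, 16.99, 16.92 and 16.63 in GFP- cells. It was above background on all 8 arrays and fell in each pool, least in replicate 3, where the GFP+ value was the highest of its gate (−4.38 ± 0.37, adjusted p = 1.24e-07). Necab1, a neuronal EF-hand protein, rose by 0.78 ± 0.21 (adjusted p = 0.0142, lost in 4 of 12 fits and 0.134 without replicate 4). Nrgn, which binds calmodulin, was the other gene called lower (−0.61), and Pcp4l1 and S100a5 complete the calls. In the S100 family 3 members (16.7%) were higher and 6 (33.3%) lower of 18 (median 0.05). Besides S100a5 the higher ones were S100a13 (0.84 ± 0.21) and S100a3 (1.27 ± 0.27), which was under background throughout, and the S100a13 call ended without replicate 1 (adjusted p = 0.0665). S100a9, a granule protein of neutrophils, read 6.44, 6.35, 5.35 and 7.74 in GFP+ and 16.20, 15.92, 15.43 and 16.39 in GFP- cells. With its partner S100a8 it was under background in every GFP+ array (−9.52 and −9.45, at least 99.8-fold and 143.6-fold lower), and S100a11 (at least 22.0-fold), S100a6 (−3.11), S100a10 (−1.98) and S100a4 (−1.22) were lower too. Among 11 sodium pump and FXYD genes, Fxyd2 and Fxyd3 (0.48, adjusted p = 0.0333, or 0.060 with the block, under background) were higher. Fxyd6 (−2.02 ± 0.40) and Atp1b3, a pump beta subunit (−0.78 ± 0.18), were lower. Each direction held 18.2% of the list, beside 9.05% and 9.97% of all probe sets. The Atp1b3 call ended without replicate 4 (adjusted p = 0.0561), and that of Fxyd3 in 9 of 12 fits, without replicate 3 among them (0.148).

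Mitochondrial and ciliary calls were mostly higher and ribosomal calls lower, and all 3 sets moved with the scaling. Of 84 oxidative phosphorylation subunits 45 (53.6%) were higher and 1 (1.19%) lower, with a median of 0.55. Among all probe sets 9.05% were higher and 9.97% lower, with a median of 0.11. Sdha, of complex II, read 11.59, 11.70, 11.24 and 11.09 in GFP+ and 10.74, 10.18, 10.61 and 10.40 in GFP- cells, without overlap (0.92 ± 0.18, adjusted p = 0.00108). Uqcrc2 of complex III (0.90) and Atp5o of the ATP synthase (0.88) were close to it, and Cox6b2, a testis form at background, was the 1 called lower (−1.16, or −0.75 with an adjusted p of 0.100 without replicate 4). Under the neuron scaling the count was 2 higher and 2 lower (median 0.21), and under the receptor scaling 0 and 2 (median 0.10). Of 22 ciliary transport genes 8 (36.4%) were higher and 0 lower (median 0.45). They were led by the BBSome subunits Bbs7 (0.90 ± 0.24, adjusted p = 0.0131) and Bbs5 (0.77). The Bbs5 call was lost in 8 of 12 fits that left out an array or a pool. Its adjusted p reached 0.136 without the GFP- array of replicate 4. Neither the neuron nor the receptor scaling left any of the 22 past the threshold, and the Bbs7 call ended without the GFP- array of replicate 4 (0.0558) and without replicate 2 (0.0666). Of 69 cytosolic ribosomal proteins 19 (27.5%) were lower and 0 higher (median −0.42). With each array centred on its median 4 were higher and 5 lower (median −0.14). Rplp0, of the ribosomal stalk, read 10.05, 10.27, 10.24 and 10.01 against 11.36, 11.81, 11.86 and 12.28. It fell in every pool (−1.69 ± 0.24), beyond Rps16 (−0.97) and Rps28 (−0.91), whose calls ended without replicate 4 (adjusted p = 0.0828 and 0.0986) and, for Rps28, without replicate 2 (0.0543).

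White blood cell transcripts made up the largest falls. All 17 measured neutrophil markers (median −7.82) were lower in GFP+ cells, beside 9.97% of all probe sets. The markers' mean per array was 4.89 to 5.80 in GFP+ and 11.96 to 13.21 in GFP- cells. On all GFP+ arrays 15 of the 17 were under background. Retnlg, a resistin-like protein of neutrophils, read 5.70, 7.09, 5.78 and 7.47 in GFP+ and 16.90, 16.42, 16.13 and 17.08 in GFP- cells. The gates lay far apart in each pool (−10.13 ± 0.48, at least 156.1-fold). Lcn2, an iron-binding granule protein that glands also make, read 8.12, 6.09, 6.97 and 9.49 against 18.30, 17.73, 17.46 and 18.35 (−10.30 ± 0.54).

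Monocyte and macrophage markers were lower for 13 of 15 (median −2.30), led by Ly6c2 (−9.01, at least 31.8-fold) and Lyz2, lysozyme (−7.29). All 9 B cell and antigen presentation genes were lower (median −3.41). H2-Aa, an MHC class II chain, read 6.20, 6.46, 5.64 and 5.68 in GFP+ and 10.50, 11.86, 11.98 and 11.72 in GFP- cells, the lowest GFP- value being that of replicate 1 (−5.52 ± 0.40, at least 4.49-fold). Spi1, the transcription factor of myeloid and B cells, read 7.24, 7.23, 8.82 and 7.79 against 15.42, 15.46, 15.38 and 16.02 (−7.80 ± 0.40, at least 74.6-fold). Of 9 T and natural killer cell genes 5 were lower, all 9 under background (Il2rb −1.89, Cd3e −1.74, Klrb1c −1.43, Nkg7 −1.26 and Cd3g −0.99, the Klrb1c call ending without replicate 2 at 0.0689), and of 3 erythroid genes Slc4a1 (−2.48) and Alas2 (−1.38, adjusted p = 0.077 without replicate 3) were lower. Outside these lists the 16 largest falls, from −9.33 to −6.90, included Chil3, a chitinase-like protein of macrophages and neutrophils (at least 103.9-fold), Fn1, fibronectin (at least 9.16-fold), and Ly6c1 (at least 21.7-fold). All 16 were also lower in GFP+ cells of the citrus mice.

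**Figure D2:**
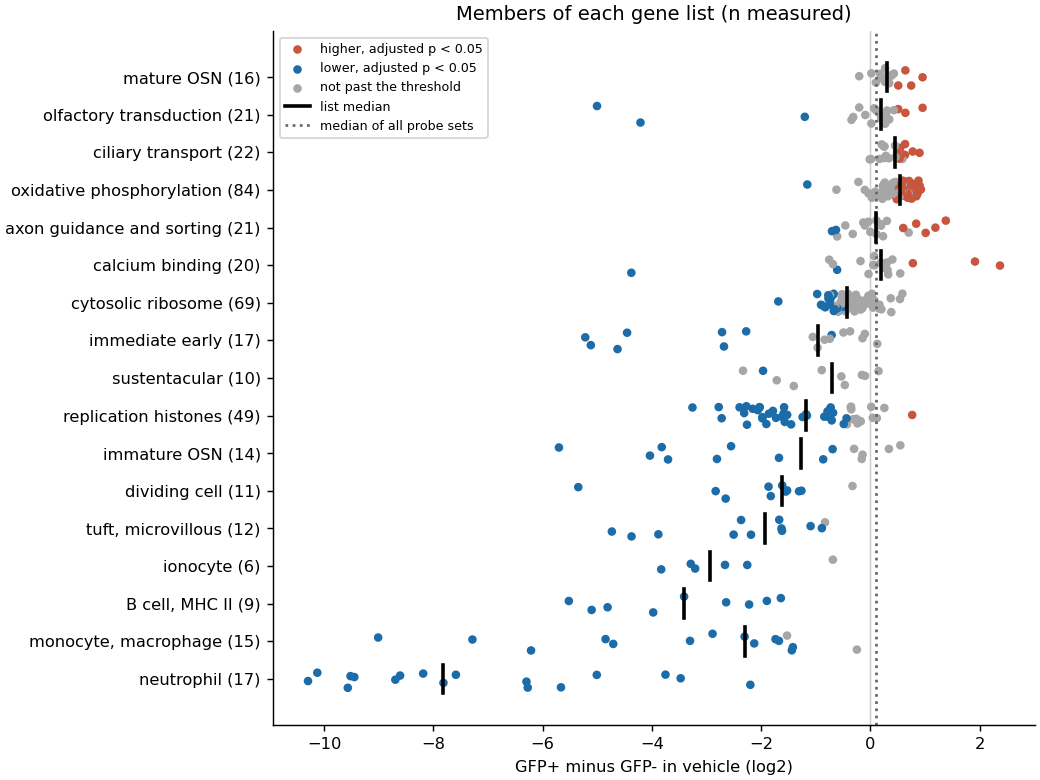
Difference in log2 expression between vehicle GFP+ and GFP- cells for each measured member of 17 gene lists, 1 row per list, points colored by the limma call and bars at the list medians. All 17 neutrophil genes lie below 0 (median −7.82). The dividing, immature, tuft and ionocyte lists have medians below 0, and oxidative phosphorylation sits slightly above 0 (median 0.55).

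Genes of dividing and differentiating cells were lower as well. Of 11 cell division genes 10 (90.9%) were lower (median −1.62), beside 9.97% of all probe sets. On all GFP- arrays 9 of the 11 were under background. Mki67, the proliferation marker, read 6.01, 4.10, 3.90 and 5.01 in GFP+ and 9.54, 9.22, 10.39 and 11.27 in GFP- cells. No GFP+ array was above background (−5.35 ± 0.47, at least 1.69-fold lower). Kit (−3.46 ± 0.32) and Sox2 (−1.82), a receptor and a transcription factor of progenitors, were among 6 of 8 progenitor genes called lower, 7 of the 8 being under background on all GFP- arrays. Blood precursors also use Kit and the division genes, and the part of such cells was not tested.

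Of 14 immature OSN genes 9 (64.3%) were lower and 0 higher (median −1.27), beside 9.97% and 9.05% of all probe sets. With each array centred on its median 8 were lower and 1 higher. Gng8, a G protein subunit of immature OSNs, read 5.48, 5.61, 5.47 and 5.37 in GFP+ and 9.46, 9.35, 9.99 and 9.28 in GFP- cells. The gates did not overlap (−4.04 ± 0.18, at least 1.13-fold). Gap43, the growth cone protein, read 6.72, 7.27, 8.27 and 7.85 against 10.12, 9.85, 10.40 and 9.95 (−2.55 ± 0.29, adjusted p = 3.38e-06). Dpysl3, a growth cone collapsin mediator, read 7.99, 8.05, 8.22 and 8.08 against 11.54, 11.79, 11.82 and 12.02 (−3.71 ± 0.17). The neuronal cytoskeleton genes Dcx (−0.16, adjusted p = 0.643), Stmn2 (−0.14) and Tubb3 (0.55, 0.146, or 0.037 with the block) did not pass the threshold without the block. Cxcr4, a chemokine receptor of progenitors and of white blood cells, was lower by 5.70 on the log2 scale, from 9.07 to 11.48 in GFP- to 3.97 to 4.70 in GFP+ cells.

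Of 12 markers of tuft-like microvillous cells 11 were lower (median −1.93), 11 under background on all GFP- arrays. Trpm5, their cation channel, read 4.61, 5.31, 5.50 and 4.53 in GFP+ and 8.60, 10.06, 9.22 and 9.57 in GFP- cells (−4.37 ± 0.36, at least 1.01-fold). Alox5, a lipoxygenase that white blood cells also express, was −4.73 ± 0.35. Of 6 ionocyte genes 5 were lower (median −2.94). Foxi1, the ionocyte transcription factor, read 7.35, 7.42, 6.99 and 6.41 against 8.25, 12.04, 11.30 and 11.91, with replicate 1 far below the other GFP- arrays (−3.83 ± 0.75, adjusted p = 0.00121, at least 2.88-fold). The chloride channel gene Cftr read lowest in replicate 1 too, at 6.86 against 9.05 to 9.57 (−3.29 ± 0.49).

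Among the epithelium's supporting cells, counts are read beside the 9.97% of all probe sets that were lower. Of 10 sustentacular markers 1, Notch2, was lower (−1.97 ± 0.26, under background on all 8 arrays), or 4 with the pool as a block, and of 8 Bowman gland markers 1, or 3 with the block. Cyp2g1, an olfactory cytochrome P450, read 12.13, 15.01, 15.40 and 14.44 in GFP+ and 11.38, 16.72, 16.41 and 16.03 in GFP- cells. Both arrays of replicate 1 were low, and only there was the GFP+ value the higher (−0.89 ± 0.99). Sox9, a gland transcription factor, was the gland gene called lower (−4.44 ± 0.40). Of 8 horizontal basal cell markers, all under background, 0 passed, or 1 as higher with the block (Cdh3, 0.57, adjusted p = 0.0233), and of 7 markers of ciliated respiratory cells 3 were higher: Tekt1, a ciliary tektin (1.04 ± 0.29), Dynlrb2, a dynein light chain (0.90), and Dnah9 (0.54, under background, lost with the block at 0.085). Under the neuron or receptor scaling none of these 3 passed, and the calls of Tekt1 and Dnah9 ended without replicate 2 (0.113 and 0.179). No endothelial or stromal marker passed. All 6 of each, and the 6 measured ensheathing glia genes, were under background on all 8 arrays. Ensheathing glia gave 1 call, Sox10 (−1.12, adjusted p = 0.116 without replicate 2), and neurons that use guanylyl cyclase D gave 3, Ms4a6c (−4.19), Pde2a (−3.13) and Ms4a4b (−2.05), but not the cyclase Gucy2d itself (0.02, at background).

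Histone genes, a list added after its first members were seen among the falls, were lower for 35 and higher for 1 of 49 (median −1.18). Among all probe sets 9.97% were lower and 9.05% higher. H2ac15, a core histone of the replication cluster, read 9.96, 10.58, 9.63 and 10.59 in GFP+ and 13.31, 12.72, 13.73 and 14.03 in GFP- cells. It stayed above background on all 8 arrays (−3.26 ± 0.31, adjusted p = 5.72e-07). H2ac10 (−2.78) and H2ac8 (−2.72) followed, and H2ac21 was the 1 called higher (0.76, adjusted p = 0.0548 without replicate 2). Histone genes are near-identical, and whether probes were shared between them was not tested. Among the 4120 non-receptor genes above background on all 8 arrays, 69 were lower and 20 higher by at least 2-fold. Chosen after their values were seen, Aldh2, an aldehyde dehydrogenase (−3.71), Gpx1, a glutathione peroxidase (−3.43), Txnip, a thioredoxin inhibitor (−3.17), Apoe, a lipoprotein (−3.04), and Sirpa, a membrane receptor of myeloid cells and neurons (−2.69), were among the largest of these falls. The Apoe call ended without replicate 2 (adjusted p = 0.0558).

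No immediate early gene was called higher in the reporter cells. Of 17, 8 (47.1%) were lower and 0 higher (median −0.97), beside 9.97% and 9.05% of all probe sets. With the pool as a block 10 were lower, and across the scalings 7 to 12 were. Fos, the prototype of the class, read 6.49, 7.62, 7.56 and 8.34 in GFP+ and 10.81, 13.27, 9.64 and 14.81 in GFP- cells. GFP+ arrays were all under background, and the GFP- arrays differed widely among themselves, replicates 2 and 4 being the high ones (−4.63 ± 0.88, adjusted p = 0.000912, at least 6.90-fold). Egr1, a zinc finger factor, was also high in replicates 2 and 4, with 4.64, 6.26, 6.01 and 6.64 against 9.28, 13.37, 8.98 and 12.40 (−5.12 ± 0.90, at least 3.16-fold). Zfp36, an mRNA decay factor (−5.22), and Btg2, an antiproliferative factor (−4.45), were lower, and the neuronal genes Arc (0.12, adjusted p = 0.677) and Npas4 (−0.15, under background) did not pass. White blood cells, whose markers are above, also express Fos and Egr1, and their part in these values was not tested. Of 8 heat shock genes 0 passed, but Hspa1a (−2.34, adjusted p = 0.071) and Hspa1b (−2.14, 0.131) passed as lower with the block (0.0001 and 0.00055).

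Odorant receptors were called in both directions, with more of them higher than lower in GFP+ cells. Of 1106 receptor probe sets, 1091 odorant and 15 trace amine receptors, 430 were higher and 226 lower in GFP+ cells, and 411 and 217 of them by at least 2-fold. Of the odorant receptors 38.9% were higher and 20.4% lower, beside 9.05% and 9.97% of all probe sets. Of the 430, only 134 were above background on all 4 GFP+ arrays, and of the 226, only 101 on all 4 GFP- arrays. On all 8 arrays 545 of the 1106 were under background. The odorant receptor median was 0.57, or 0.85 with each array centred on its median (535 higher and 210 lower), 0.64 after quantile normalization and 0.23 under the neuron scaling (364 and 273). The receptor scaling, which holds this median near 0 by construction, left 354 higher and 293 lower. Of the 108 receptors above background on all 8 arrays, 38 were higher and 12 lower and 40.7% differed by at least 2-fold with a call. For the other 4124 probe sets above background on all 8 arrays that share was 2.16%. The middle 50% of differences ran from −0.45 to 1.35 for those receptors and from −0.08 to 0.37 for the other probe sets. Both class I receptors (49 higher and 14 lower of 122) and class II receptors (373 and 205 of 958) held calls in both directions.

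**Figure D3:**
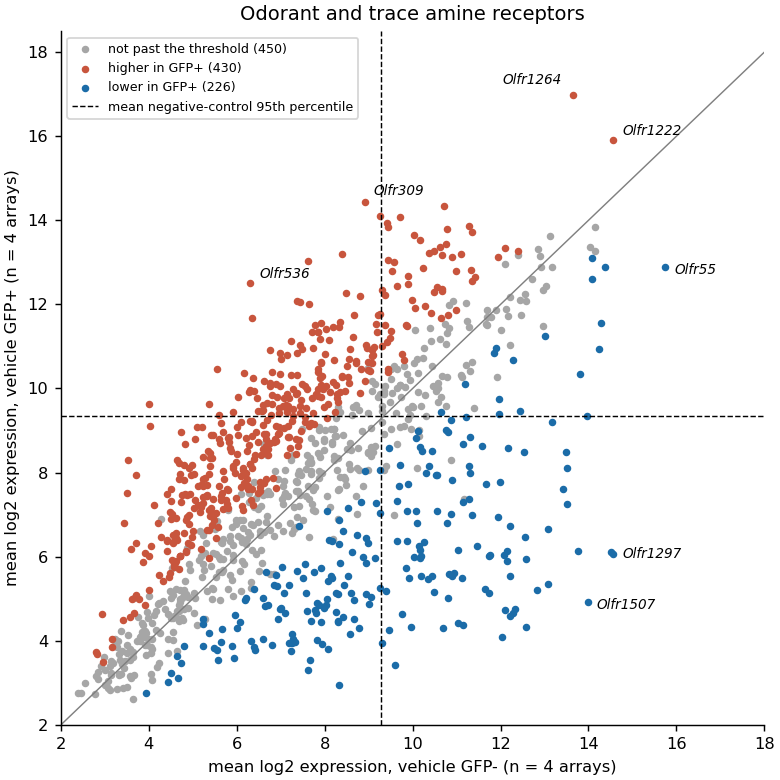
Mean log2 expression of 1106 receptor probe sets in vehicle GFP- (horizontal) and GFP+ cells (vertical), colored by the limma call, with the diagonal of equal expression and dashed lines at mean background. The 430 higher receptors lie above and the 226 lower ones below the diagonal, and Olfr1507 and Olfr1297 lie far below the background line of GFP+ cells.

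The receptors at both ends are shown with the 250 bases upstream of their starts (RefSeq, GRCm38.p6). Olfr536, on the - strand at chr7:140507319-140507568, and Olfr533, on the + strand at chr7:140465953-140466202, are neighbours of family MOR252 and rose together, while Olfr1297, on the - strand at chr2:111622073-111622322, and Olfr99, on the - strand at chr17:37280419-37280668, fell.
Olfr536: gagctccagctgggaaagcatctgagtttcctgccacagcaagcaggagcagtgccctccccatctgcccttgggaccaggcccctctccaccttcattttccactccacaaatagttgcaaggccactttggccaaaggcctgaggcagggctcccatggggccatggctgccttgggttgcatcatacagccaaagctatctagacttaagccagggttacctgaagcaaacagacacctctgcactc
Olfr533: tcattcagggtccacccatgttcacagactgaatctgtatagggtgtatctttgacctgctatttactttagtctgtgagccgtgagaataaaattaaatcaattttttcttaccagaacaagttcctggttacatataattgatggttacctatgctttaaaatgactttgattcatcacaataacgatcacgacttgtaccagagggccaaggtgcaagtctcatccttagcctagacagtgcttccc
Olfr1297: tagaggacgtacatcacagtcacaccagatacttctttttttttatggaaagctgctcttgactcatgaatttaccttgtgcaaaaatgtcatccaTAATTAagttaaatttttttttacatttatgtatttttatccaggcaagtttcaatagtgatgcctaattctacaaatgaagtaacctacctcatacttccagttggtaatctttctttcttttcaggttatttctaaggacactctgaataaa
Olfr99: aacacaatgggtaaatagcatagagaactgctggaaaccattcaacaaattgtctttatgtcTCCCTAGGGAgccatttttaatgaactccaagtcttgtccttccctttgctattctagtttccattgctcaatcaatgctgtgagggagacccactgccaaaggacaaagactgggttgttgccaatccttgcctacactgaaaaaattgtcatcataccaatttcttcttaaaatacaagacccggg
Capitals mark a TAATTA in Olfr1297 and a match to the Ebf consensus in Olfr99, and the other windows hold none of the motifs. TAATTA stood in 15.5% of 362 higher, 23.7% of 186 lower and 17.3% of 388 receptors that did not pass. It was in 17.8% of 936 receptors and 5.65% of all 27025 promoters. TGACG, the core within the cyclic AMP element, stood in 30.3% of 1108 higher and 20.4% of 1406 lower non-receptor genes. It was in 24.6% of 12241 non-receptor genes that did not pass and, receptors included, in 23.4% of the 15691 tested genes with a promoter. These shares describe letters in a window and were not tested.

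Olfr536 read 12.85, 11.61, 12.37 and 13.16 in GFP+ and 7.28, 5.37, 6.32 and 6.26 in GFP- cells. It was above background on all GFP+ and on no GFP- arrays (6.19 ± 0.47, adjusted p = 3.4e-08, at least 9.33-fold). Its neighbour Olfr533 read 13.06, 12.44, 13.28 and 13.34 against 8.17, 7.33, 7.43 and 7.53, the same pattern (5.42 ± 0.38, at least 13.5-fold), while their family member Olfr530 was under background in both gates (−0.12 ± 0.36). Olfr309 read 14.87, 13.94, 14.05 and 14.88 against 9.77, 6.92, 9.64 and 9.30, with the GFP- array of replicate 2 the lowest (5.53 ± 0.51). Olfr110 (5.33, at least 5.25-fold), Olfr160 (4.92, at least 2.28-fold) and Olfr522 (4.87) complete the 6 largest rises. Olfr1264, chosen after its values were seen, was bright in both gates at 17.07, 16.78, 16.70 and 17.39 against 14.53, 13.31, 13.35 and 13.40 (3.34 ± 0.32).

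At the other end Olfr1507, known as MOR28, read 3.83, 5.64, 5.33 and 4.89 in GFP+ and 13.57, 14.15, 14.30 and 13.91 in GFP- cells. Its GFP+ values lay near the medians of negative-control probes, 4.95 to 5.37 on these arrays (−9.06 ± 0.29, at least 24.8-fold lower). Olfr1297 read 5.74, 5.93, 5.72 and 6.81 against 14.78, 14.84, 14.38 and 14.28 (−8.52 ± 0.25, at least 37.3-fold), and Olfr99 read 5.73, 6.54, 6.53 and 5.60 against 14.87, 14.06, 14.63 and 14.49 (−8.41 ± 0.43, at least 35.9-fold). The mRNA of these 3 receptors was under background in the GFP+ cells of all 4 pools. Olfr794 (−8.27, at least 9.45-fold), Olfr1213 (−7.96, at least 6.44-fold) and Olfr1447 (−7.72, at least 13.2-fold) complete the 6 largest falls. Not every lower receptor was under background in GFP+ cells. Olfr55, chosen after its values were seen, read 12.15, 13.65, 12.57 and 13.18 against 15.49, 15.77, 15.86 and 15.88 (−2.86 ± 0.31).

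Calls were also counted within families of related receptors. Of 42 MOR families with at least 8 members, 5 are described, chosen for their values, while others such as MOR174 (4 higher and 4 lower of 14) and MOR202 (13 and 9 of 31) held calls in both directions. MOR106 had 10 higher and 1 lower of 13 (median 3.02), MOR253 8 and 0 of 10 (2.32) and MOR223 8 and 0 of 9 (1.98). Many of these calls were on dim receptors. Of the members called higher, only Olfr741 and Olfr745 in MOR106 and none in MOR223 were above background on all 4 GFP+ arrays. In MOR253 all but Olfr45 were. Within MOR106 Olfr741 read 15.10, 13.21, 13.44 and 13.96 in GFP+ and 9.90, 8.49, 10.16 and 9.09 in GFP- cells (4.52 ± 0.40). Its family member Olfr736 went the other way, with 4.47, 7.53, 7.38 and 6.02 against 10.67, 9.79, 9.95 and 10.65 (−3.91 ± 0.55). MOR135 had 1 higher and 11 lower of 18 (median −1.88) and MOR225 1 and 8 of 11 (−3.46). Among the lower calls, Olfr380, Olfr391, Olfr397, Olfr75-ps1, Olfr378 and Olfr381 of MOR135 were under background on all 8 arrays. So were Olfr1208 and Olfr1181 of MOR225. Olfr393 of MOR135 read 5.50, 4.96, 5.14 and 5.20 against 12.46, 12.67, 13.19 and 13.01 (−7.63 ± 0.24), while Olfr376 of the same family rose by 2.00. In MOR225 Olfr1178 read 4.71, 6.51, 5.05 and 4.63 against 11.77, 11.31, 12.39 and 11.15 (−6.43 ± 0.42) and Olfr1180 rose by 2.23. Both Olfr376 and Olfr1180 were under background on all 8 arrays. Close paralogs may share probe signal, and its part in these counts was not tested. Of 1023 pairs of neighbouring receptor genes less than 100 kb apart, 188 were both higher, 66 both lower and 116 called in opposite directions. The differences of paired neighbours correlated only weakly (r = 0.19). Among all 1106 receptor probe sets 430 were higher and 226 lower, and whether the pair counts exceed those of unlinked pairs was not tested.

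**Figure D4:**
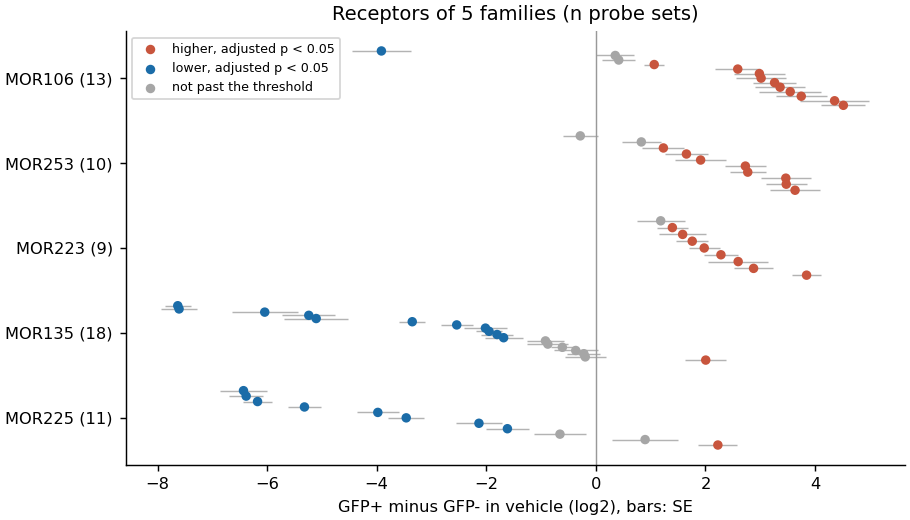
GFP+ minus GFP- difference in log2 expression (± SE of the limma fit, 4 arrays against 4) for each member of receptor families MOR106, MOR253, MOR223, MOR135 and MOR225 in vehicle mice. Most members of the first 3 families lie above 0 and most of MOR135 and MOR225 below it, with Olfr736, Olfr376 and Olfr1180 on the other side of their families.

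Trace amine receptors, which detect volatile amines, split as well. Of 15, 6 were higher and 3 lower (median 0.34), and 12 were under background on all GFP- arrays. Taar9 read 10.58, 10.07, 10.45 and 11.44 in GFP+ and 7.37, 8.43, 7.89 and 7.93 in GFP- cells, above background in GFP+ cells alone (2.73 ± 0.54, at least 2.56-fold). Taar4 rose by 3.02 ± 0.51 (adjusted p = 0.000321). Taar2 read 4.37, 4.68, 8.09 and 4.98 against 7.93, 9.30, 8.56 and 8.36, with the GFP+ array of replicate 3 near the GFP- range (−3.00 ± 0.73, adjusted p = 0.00687, or 0.076 without replicate 2). Taar7b (2.17) and Taar7f (−1.81) of the expanded Taar7 subfamily were called in opposite directions. Of 321 vomeronasal receptors, which belong to another organ and lay at background but for 1, 12 were called higher and 0 lower (median 0.20), against 9.05% and 9.97% of all probe sets. With each array centred on its median 98 were higher, whereas under the neuron and receptor scalings 0 were higher and 7 lower (medians −0.14 and −0.25).

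Citrus mice gave a separate set of arrays for the same gate, with 1 spread per probe set estimated over both. Of 19572 probe sets 0 (0%) had a vehicle gate difference that differed from the citrus gate difference past the threshold (limma), with 722 at an unadjusted p under 0.05, and 1 with the pool as a block. That 1 was Olfr1284, which read 9.48, 9.09, 8.84 and 9.81 in GFP+ and 8.71, 8.40, 7.81 and 8.07 in GFP- cells of vehicle mice (1.06 ± 0.38, adjusted p = 0.0612, or 0.0019 with the block). Its gate difference was 3.51 in citrus mice, higher than in vehicle by 2.46 (vehicle minus citrus −2.46 ± 0.54, 95% interval −3.59 to −1.32, adjusted p = 0.999, or 0.0299 with the block). Receptors called higher in vehicle were shared for 404, which is 94% of the 430 in vehicle and 86.1% of the 469 in citrus, and those called lower for 193 (85.4% and 88.9%). For other genes 431 higher calls were shared, 32.1% of those in vehicle and 43.6% of those in citrus, and 1485 lower calls (86% and 78.4%).

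Olfr353 and Olfr704 were the only receptors called in opposite directions under the 2 stimuli. Olfr353 read 5.27, 5.28, 5.13 and 5.60 in GFP+ and 7.00, 6.60, 6.62 and 7.19 in GFP- cells of vehicle mice, lower without overlap although all 8 values lie under background (−1.53 ± 0.29, adjusted p = 0.00109). In citrus mice it was higher by 1.24 ± 0.29 (0.00566), and the difference between the stimuli of −2.77 ± 0.42 had an adjusted p of 0.0807, or 0.0677 with the block. Olfr704 was −1.14 ± 0.35 in vehicle (adjusted p = 0.0276, lost in 6 of 12 fits with arrays left out, 0.176 without replicate 1) and 1.16 ± 0.35 in citrus, a difference of −2.30 (0.999). For the marker genes the interval of vehicle minus citrus was −0.87 to 0.60 for Pcp4l1 and −1.93 to 1.07 for Fxyd2 (95%), and −0.35 to 0.42 for S100a5. Of the 20 largest non-receptor rises 16 were called higher in citrus too, where they ran from 0.70 to 2.50.

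**Figure D5:**
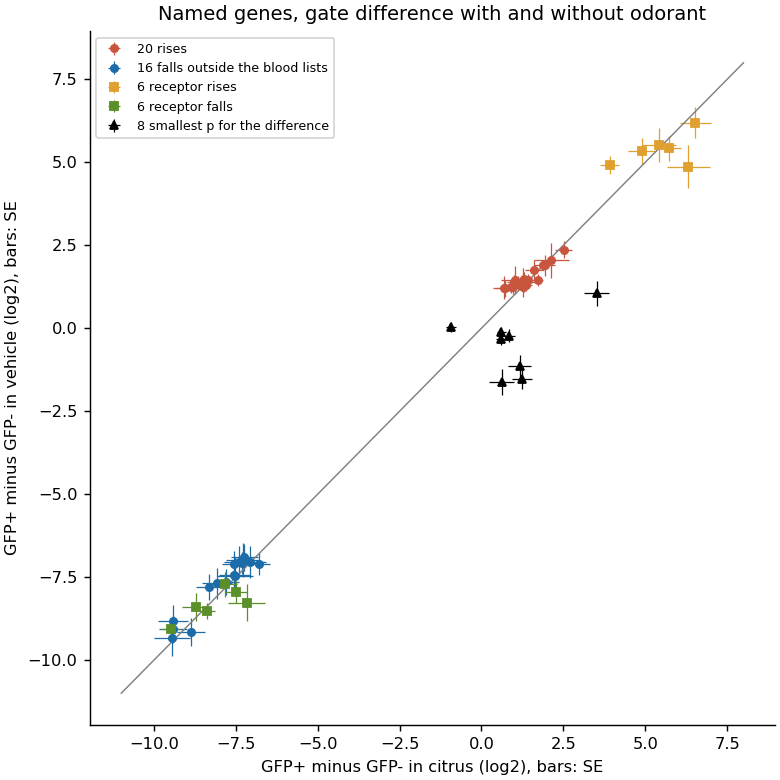
GFP+ minus GFP- difference in log2 expression in citrus mice (horizontal) against vehicle mice (vertical) for the 20 largest rises, the 16 largest falls, 6 receptor rises, 6 receptor falls and the 8 probe sets with the smallest p for vehicle minus citrus, with SE bars and the line of equality. The first 4 sets, between −9.33 and 6.19 in vehicle, lie along the line, and the 8, chosen for their difference, lie off it.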

How the data were processed

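Log2 expression values for 28846 probe sets on 16 Clariom S mouse arrays were used as deposited by the authors. The submitters' processing notes name Affymetrix Expression Console, and a label names a gene-level SST-RMA signal, whose signal space step can stretch the scale. No software version is stated, and the genome build is not given in the sources used here. Labelled cRNA came from 50 to 100 ng of RNA, per the labels' protocols. Arrays hold no read depth: their number, 4 per group, limits the precision. After removal of 6640 control probe sets and 2634 without a symbol, 19572 probe sets were tested, all matched to a current gene table. For 55 symbols with several probe sets, only the probe set of highest mean is named. Background was the 95th percentile of 5222 negative-control probe sets per array.

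Groups came from the labels. The test was limma 3.58.1 (R 4.3.3): a mean for each of the 4 groups over all 16 arrays, no block, empirical Bayes, two-sided, adjusted by Benjamini-Hochberg over all 19572, with a threshold of 0.05. Every adjusted p is from this model or a named alternative, ± is its SE, and n is 4 arrays against 4. P-values thus reflect how pools of mice vary. The 24 mice in pools of 3 cannot fill 16 arrays, so both gates of one replicate number were taken as the same mice, although no label says so. Deviations from the group means of such vehicle arrays correlated at 0.075 to 0.275, and 4 of 4 correlated best with their own number. Fits with the pool as a block are given beside a result where they change the call of a named gene or move a count by over 1.5 times. Scripts were tested on simulated data.

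Alternatives were the block, the vehicle arrays alone, leaving out each array or pool, 3 centrings, quantile normalization, a filter on background, probe sets without symbols, a trended robust prior and array weights. Named genes were S100a5, Pcp4l1, Fxyd2 and Omp, the 20 largest non-receptor rises and 16 largest falls outside blood lists that were above background on the arrays of the higher gate and had the same sign in all 4 pools, up to 3 members per list and direction, all members of 5 lists, the 6 largest receptor rises and falls, and the 8 smallest p for vehicle minus citrus. A rule on receptor protein identity was not applied. The members and all 39 lists were chosen with earlier results of these data known. MOR family numbers up to 42 were taken as class I. Promoter windows are RefSeq's of GRCm38.p6, and Python 3.11.15, pandas 2.3.3 and matplotlib 3.10.9 served for them and the figures.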

Additional observations from a re-analysis of the deposited data

Results flagged for a closer look

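Among 233 groups of 4 arrays of the named genes, 18 held an array far from the others of its gate, and chance alone flags about 1 in 20 such groups. In GFP+ cells replicate 1 was low for Fxyd2 (7.82 against 10.50 to 10.85). Replicate 2 was low for Kcnmb3 (13.07) and high for Hspa5 (17.06) and Olfr1200 (11.84). Replicate 3 was low for Cidea (11.41), Olfr372 (9.02), Taar7b (8.83) and the histone gene H3c11 (10.06), and high for Calb2 (13.70). Replicate 4 was low for Cnga2 (17.03). In GFP- cells replicate 4 was low for Rasl11a (8.98 against 10.58 to 10.75) and Calm2 (18.44), and high for the myeloid factor Spi1 (16.02), S100a11 (14.26), Lbr (12.08) and the chloride transporter Slc12a2 (16.42). Replicate 3 was high in GFP- cells for the calcium exchanger Slc24a4 (13.53) and for Olfr1213 (12.50). The GFP- array of replicate 4 thus stood apart for 6 of these genes.

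Olfr1284 had a gate difference in vehicle that was lower than in citrus, with vehicle minus citrus at −2.46, a difference past the threshold of limma with the pool as a block (adjusted p = 0.0299) and not without it (0.999). Of the probe sets without a gene symbol, which no comparison above uses, 320 passed the threshold between the vehicle gates, 141 higher and 179 lower in GFP+ cells.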

How the results depend on the processing

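Of the named genes' results 218 kept their direction and side of the threshold with the replicate block, 4 lost the call and 5 gained it. With arrays or pools left out 2556 results stayed on the same side of the threshold, 161 lost the call and 7 gained it. The 2556 include genes called in neither fit, whatever their sign. With the block 2150 probe sets were higher and 2103 lower, and with the vehicle arrays alone 1207 and 1837. Leaving out an array or a pool gave 927 to 2119 higher probe sets and 2369 to 4192 in all, with 927 higher and 2466 in all without replicate 2, 929 and 2369 without replicate 4, and 1081 higher without the GFP- array of replicate 4. Centring on all probe sets gave 7080 higher, 8635 in all and 1020 higher by at least 2-fold. Centring on mature OSN markers gave 493 higher and 3558 lower, and centring on the receptor median 393, 3491 and 2280 lower by at least 2-fold. In that last setting Hspa5 turned to −0.038. For these centrings the cause was not tested beyond their own construction, a shift of every value of an array. With only the 5770 probe sets above background in at least 1 group, where fewer are tested, 1198 were higher and 617 lower (1815 in all), 230 and 374 by at least 2-fold, with 192 receptors higher and 116 lower. For vehicle minus citrus the count was 1 with the block, with either of the latter centrings and with the trended robust prior, against 0 otherwise. Signal at background limits any fold for genes dim in one gate.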
